A study of Homo sapiens with 5 samples.

Results

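The 41 genes described here encode the machinery of cell division: the cyclin-CDK1 switch, the mitotic kinases, the chromosomal passenger complex, the spindle checkpoint, the kinetochore, the kinesins, and the proteins of the spindle, the chromosomes and the cleavage furrow. They were taken from a list of gene names, their transcripts were summed per gene, and a gene was kept where its scaled counts averaged 20 or more. All 41 listed genes passed, of 14585 that passed among 35453 gene names. RNA was sequenced from KGN cells, an established line from a human granulosa cell tumour, in which activators of single signalling pathways were compared. Every group, the control included, spent 24 h in charcoal-stripped medium that held androstenedione, the substrate of aromatase, at 100 nmol/L. FSH was added at 100 ng/mL. SC79, an activator of the kinase AKT, was added at 4 µg/mL. Forskolin (FSK), which activates adenylyl cyclase and raises cAMP, is labelled 10 mmol/L, and the phorbol ester PMA, which activates protein kinase C, 0.1 mmol/L, while the protocol text appears to give both in µmol/L. The control is titled as untreated, while the protocol text has ethanol added to it.

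Each group is 1 library of poly(A) RNA pooled from 3 cultures of different weeks, so the weeks cannot be separated, there is no replicate error, and no p-value was computed. Values are estimated counts per gene, scaled between libraries by the TMM method and called scaled counts. Ratios are given with an exact 95% interval that covers counting error only, and since reads carried no molecular identifiers they do not count independent molecules. The libraries held between 50218703 (SC79) and 58811603 (control) estimated counts on named genes. Of 12 granulosa markers, 11 passed the same filter, among them FOXL2 at 9976 scaled counts in control, NR5A1 at 5075 and GATA4 at 10087, while WT1 was at 0 in 3 libraries. The summed granulosa markers ran from 24804 in PMA to 80063 in FSK, where CYP19A1 (aromatase) alone stood at 27444 against 902 in control. FSHR, the receptor of FSH, had 92.7 scaled counts in control. Summed immune markers ran from 851 in control to 2235 in PMA with CD3E and TYROBP at 0 throughout, and summed endothelial markers from 307 in SC79 to 1009 in PMA. Summed oocyte markers stayed between 33.7 and 46.3 with BMP15 and FIGLA at 0, and the epithelial sum ran from 33704 in FSK to 57355 in FSH. The theca and stroma sum, most of it the collagen gene COL1A1 and with TCF21 at 0, ran from 314028 in PMA to 810229 in control. The part of these differences in the results was not tested, and in bulk RNA fewer dividing cells and less RNA per dividing cell cannot be told apart.

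Mitotic genes are transcribed late in the cell cycle, so that their RNA is most abundant in G2 and M phase and low in resting cells. Many of their promoters carry a cell cycle genes homology region, a short element that a repressor complex holds silent in resting cells and that activators with MYBL2 and FOXM1 use later, often with CCAAT boxes bound by NF-Y. Granulosa cells divide in the growing follicle and leave the cycle when they differentiate.

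The letters TTTGAA and TTTAAA were searched as stand-ins for this element, and whether a match acts as one was not tested. Below are the 100 bases before the RefSeq start site for the 5 genes with the lowest FSK-to-control ratio among those with a TTTGAA or TTTAAA match there, and last for CDC25B, the gene whose RNA differed least with FSK. Capitals mark TTTGAA or TTTAAA, and also CCAAT, on either strand, so TTCAAA and ATTGG are matches too. Each runs 5′ to 3′ on the strand of its gene, from RefSeq on GRCh38.p14.
MKI67, chr10:128126424-128126523, minus strand: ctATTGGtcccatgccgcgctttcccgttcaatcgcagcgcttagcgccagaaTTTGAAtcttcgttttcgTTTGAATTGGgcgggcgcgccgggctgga
CDCA8, chr1:37692416-37692515, plus strand: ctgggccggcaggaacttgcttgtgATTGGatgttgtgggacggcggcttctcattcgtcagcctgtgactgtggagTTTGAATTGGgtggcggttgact
ANLN, chr7:36389762-36389861, plus strand: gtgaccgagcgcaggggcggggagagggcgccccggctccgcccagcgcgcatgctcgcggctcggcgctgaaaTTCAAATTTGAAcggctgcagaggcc
CENPA, chr2:26785956-26786055, plus strand: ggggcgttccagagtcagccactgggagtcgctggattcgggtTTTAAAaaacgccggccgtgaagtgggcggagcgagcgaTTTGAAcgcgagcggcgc
BUB1B, chr15:40160969-40161068, plus strand: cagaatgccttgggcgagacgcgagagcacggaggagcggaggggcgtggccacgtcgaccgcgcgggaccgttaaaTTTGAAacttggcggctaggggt
CDC25B, chr20:3786851-3786950, plus strand: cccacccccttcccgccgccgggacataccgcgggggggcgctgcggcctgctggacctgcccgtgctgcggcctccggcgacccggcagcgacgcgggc
The first 5 windows each hold TTTGAA in the last 50 bases before the start, and in MKI67 and CDCA8 it overlaps a CCAAT box on the other strand. The first 5 were picked for a match in these bases, so that each holds one is no result. The CDC25B window holds none of these motifs, but it belongs to 1 of 4 listed starts of that gene. AURKB had a lower ratio with FSK than the first 5, at a log2 of -3.35, and no hexamer in the 300 bases around its start. A link between motif and ratio was not tested.

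A promoter of 300 bases, from 250 before to 50 after the start, was found for 34 of the 41 genes, and PKMYT1, AURKA, BIRC5, BUB3, TTK, UBE2C and TPX2 had no entry. TTTGAA or TTTAAA stood in 29 of the 34 promoters (85.3%), against 24.3% of all 27305 promoters in the table and 16.3% of the 10809 whose gene passed the count filter. TTTGAA alone was in 67.6% of them, against 15.4% of all promoters and 9.93% of those whose gene passed. CCAAT was in 70.6%, against 35.7% and 36.3% in that order. Both kinds together were in 61.8%, against 9.49% and 6.64%. The genes' hexamers lay close to the start: 28 of 45 matches were within 50 bases of it, with a median position of -30, and the CCAAT boxes lay further out at a median of -79. The E2F-like letters searched, TTTCCCGC, TTTGGCGC, TTTCGCGC and TTTGCCGC on either strand, were found in 3 of the 34 (8.82%), against 3.33% of all promoters. These were in CENPA, NUSAP1 and CDK1. Among promoters whose gene passed the count filter the share with E2F-like letters was 5.11%.

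In other lists the hexamer shares differed. The hexamer was in 64.3% of 56 promoters of other mitosis genes and in 11.1% of 27 promoters of S phase genes. Of anaphase-promoting complex genes 26.7% of 15 promoters had it, and of mitotic gene regulators 22.7% of 22. Of cohesin genes 20% of 10 had it, and of reference genes 9.09% of 11. CCAAT was as frequent in other mitosis genes, at 71.4%, as in the genes described here. Its share was 59.3% for S phase, 50% for cohesin, 45.5% for reference, 36.4% for regulator and 33.3% for anaphase-promoting complex promoters. The E2F-like letters were in 55.6% of the S phase promoters. The 5 without a hexamer were CCNA2, CDC25B, CDC25C, AURKB and BUB1. Their median log2 ratio of FSK to control was -2.04, and that of the 29 with one was -2.42. For PMA the medians were -1.35 without and -1.24 with a hexamer. Six-base matches are descriptions of letters, and when every listed start of a gene was searched CDC25B and CDC25C gained a match, so that 31 genes had one, against 27.9% of all gene names.

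**Figure D1:**
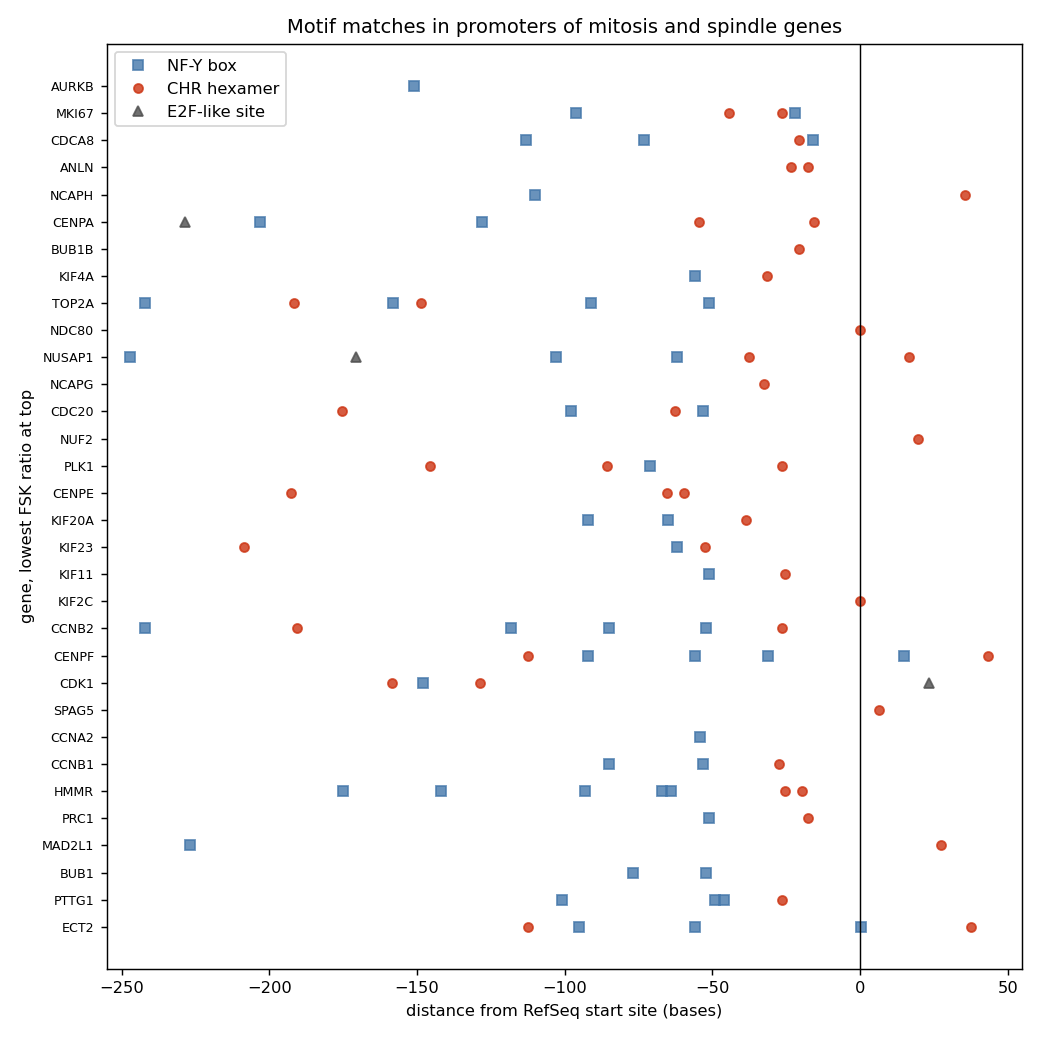
Motif matches in the promoters of the 32 mitosis and spindle genes with at least 1 match, by distance in bases from the RefSeq start site (x axis). The gene of lowest FSK-to-control ratio is at the top. Circles are letter matches to TTTGAA or TTTAAA (labelled CHR hexamer), squares to CCAAT (labelled NF-Y box) and triangles to E2F-like letters. Of the 45 circles 28 lie within 50 bases of the start, and only 3 genes carry a triangle.

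In the control library the 41 genes together took 0.308% of the counts on named genes. The share was 0.274% with SC79, 0.256% with FSH, 0.147% with PMA and 0.072% with FSK. As scaled sums, SC79 stood at 87.7% of control, FSH at 82.4%, PMA at 45.9% and FSK at 23.7%. The libraries took the same order, from control through SC79, FSH and PMA down to FSK, in 29 of the 41 genes. FSK was the lowest library for 39 genes, and PMA for the other 2, CDC25B and BUB1. Control was the highest for 39, and SC79 for the other 2, AURKB and CDCA8.

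With FSK, 39 of the 41 genes lay at least 2-fold below control, against 5.43% of all genes tested, where a gene was tested if the higher of both libraries had 100 scaled counts or more. At least 4-fold below were 31, against 1.44%. The median log2 ratio of all 41 was -2.41, that is 18.8% of control, and the median over all genes was 0.01. With PMA, 33 of the 41 lay at least 2-fold below control, against 3.62% of all genes, and the median of the 41 was -1.24 beside -0.00. With FSH none was 2-fold lower, against 0.104% of all genes, and with SC79 none, against 0.0401%. A smaller step was seen there: 25 genes with FSH lay at least 1.2-fold lower, against 2.73% of all genes, and 10 with SC79, against 4.93%. The medians were -0.29 for FSH and -0.18 for SC79, beside -0.01 over all genes in each. With no replicates these smaller differences cannot be set against the spread between cultures. None of the 41 genes was 1.2-fold higher with any of the 4 treatments, against 3.59% of all genes with FSH, 23.8% with FSK, 4.4% with SC79 and 21.5% with PMA. These comparisons share the control library, so their values are given side by side and are not independent.

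**Figure D2:**
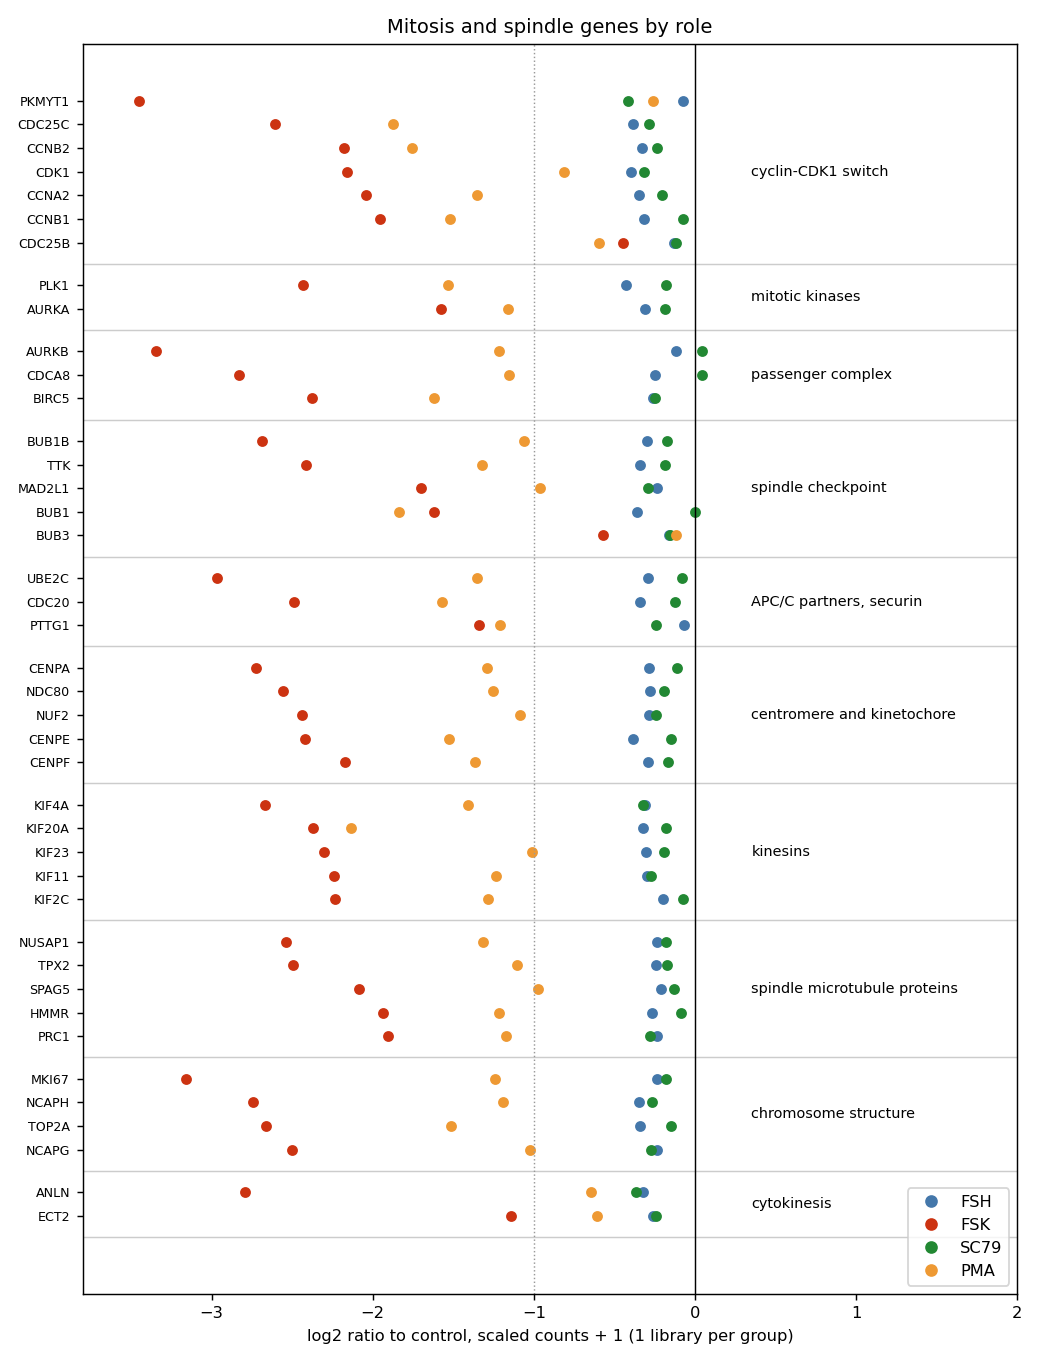
Log2 ratio to control (x axis, from scaled counts plus 1) of each of the 41 genes, grouped by role on the y axis, with 1 point per treatment and 1 library per group; the dotted line marks 2-fold lower. FSK points lie left of the dotted line in every gene but CDC25B and BUB3, and FSH and SC79 points lie between -0.43 and 0.05.

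The cyclin-CDK1 switch starts mitosis. PKMYT1 (chr16:2968024-2980539, GRCh38), a kinase that keeps CDK1 off by phosphorylating it, had 1119 scaled counts in control, 1061 with FSH, 840.4 with SC79, 933 with PMA and 101 with FSK. FSK stood apart from the other 4 libraries, 11.1-fold below control (8.96 to 13.7), the lowest ratio of the 41 genes, while PMA was 1.2-fold below (1.1 to 1.31). Of its 31-base words 71.9% occur in no other gene, and PAQR4 shares more of the rest than any other gene. CDC25C (chr5:138285265-138338355), a phosphatase that removes that brake, had 413 scaled counts in control, 317 with FSH, 339 with SC79, 112 with PMA and 67 with FSK. Both PMA and FSK were far below the rest: 3.69-fold (3.00 to 4.58) and 6.17-fold (4.74 to 8.15). CDC25B (chr20:3786772-3806121), its relative that acts earlier and at the centrosome, had 5784, 5292, 5335, 3835 and 4241 scaled counts in the same order. Here PMA was the lowest library, 1.51-fold below control (1.45 to 1.57), and FSK was 1.36-fold below (1.31 to 1.42). CDK1 itself and its cyclins CCNA2, CCNB1 and CCNB2 were between 3.87- and 4.53-fold lower with FSK. With PMA CDK1 was 1.76-fold lower, and the 3 cyclins 2.55- to 3.38-fold.

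PLK1 and AURKA are the kinases of centrosome maturation and spindle assembly. PLK1 (chr16:23677656-23690367) had 4160.2 scaled counts in control, 3092 with FSH, 3679 with SC79, 1434 with PMA and 771 with FSK. It was 5.4-fold below control with FSK (4.99 to 5.84) and 2.9-fold with PMA (2.73 to 3.08), and at 74.3% of control it was the lowest gene of the 41 with FSH (71.0% to 77.8%). AURKA (chr20:56369389-56392337) had 1726, 1394, 1517, 772 and 578 scaled counts in that order, 2.99-fold lower with FSK (2.72 to 3.29) and 2.24-fold with PMA (2.06 to 2.43).

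The chromosomal passenger complex corrects faulty attachments of chromosomes to the spindle, with AURKB as its kinase. AURKB (chr17:8204733-8210600) had 1317 scaled counts in control, 1213 with FSH, 1359 with SC79, 566 with PMA and 129 with FSK. It was 10.2-fold lower with FSK (8.51 to 12.4) and 2.33-fold with PMA (2.11 to 2.57), while with SC79 it stood at 103% of control with an interval that includes 100% (95.7% to 111%). BIRC5 (survivin; chr17:78214186-78225636), its partner, had 4174, 3481, 3512, 1358 and 803 scaled counts in the same order. With PMA it was 3.07-fold lower (2.89 to 3.27), more than AURKB and CDCA8, and with FSK 5.2-fold (4.82 to 5.62). CDCA8 (borealin) was 7.14-fold lower with FSK, and SC79 again stood at 103% of control.

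The spindle checkpoint delays anaphase until every chromosome is attached, and its members ranged widely. BUB1B (chr15:40161023-40221136), which binds and inhibits CDC20, had 2321 scaled counts in control, 1890.1 with FSH, 2057 with SC79, 1112 with PMA and 359.8 with FSK. FSK was 6.45-fold below control (5.76 to 7.24). BUB1 (chr2:110637698-110678114), the kinase that recruits the checkpoint proteins to the kinetochore, had 3594, 2798, 3592, 1006 and 1168 scaled counts in that order. SC79 equalled control to within counting error, at 100% (95.4% to 105%), and PMA was lower than FSK: 3.57-fold below control (3.33 to 3.83) against 3.08-fold (2.88 to 3.29). BUB3 (chr10:123154277-123170467), a protein of the same complex that also serves outside mitosis, had 7075, 6318, 6355, 6507 and 4759 scaled counts. With FSK it was 1.49-fold lower (1.43 to 1.54) and with PMA 1.09-fold (1.05 to 1.12), the smallest PMA difference of the 41. MAD2L1 and TTK were 3.26- and 5.34-fold lower with FSK, and 1.95- and 2.5-fold with PMA.

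CDC20 activates the anaphase-promoting complex, UBE2C is its ubiquitin-conjugating enzyme, and PTTG1 is securin, which the complex destroys to free separase. UBE2C (chr20:45812576-45816957) had 2116 scaled counts in control, 1730.2 with FSH, 2000.0 with SC79, 829 with PMA and 269.9 with FSK, which was 7.84-fold below control (6.89 to 8.95). CDC20 (chr1:43358955-43363203) had 3824, 3015, 3512, 1286 and 681, 5.62-fold lower with FSK (5.17 to 6.11) and 2.97-fold with PMA (2.79 to 3.17). PTTG1 (chr5:160421822-160428744) had 1330.4, 1270.4, 1127, 575 and 525. It was 2.53-fold lower with FSK (2.29 to 2.81) and 2.31-fold with PMA (2.1 to 2.55), and those 2 libraries did not differ beyond counting error. Of the 31-base words of CDC20 79.7% occur in no other gene, and CDC20P1 shares more of the rest than any other gene.

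At the centromere, CENPA is the histone that marks the site, and NDC80 and NUF2 form the coupler to microtubules. CENPA (chr2:26764289-26801067) had 691 scaled counts in control, 566 with FSH, 639 with SC79, 282 with PMA and 104 with FSK, 6.66-fold below control (5.41 to 8.32). CENPE (chr4:103105806-103198409), the kinetochore kinesin, had 3724, 2853, 3352, 1292 and 694 scaled counts, with PMA 2.88-fold lower (2.71 to 3.07). CENPF (chr1:214603195-214664588) had 9718, 7939, 8646, 3779.7 and 2154, 4.51-fold lower with FSK (4.3 to 4.73). These 5 genes were alike: all were 4.51- to 6.66-fold lower with FSK and 2.13- to 2.88-fold with PMA.

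Kinesins move along or shorten spindle microtubules. KIF4A (chrX:70290090-70420832), which acts on chromosome arms and the central spindle, had 2343 scaled counts in control, 1890.1 with FSH, 1872 with SC79, 881 with PMA and 367 with FSK, 6.38-fold below control (5.71 to 7.16), and 72.1% of its 31-base words occur in no other gene, KIF4B sharing more of the rest than any other. KIF2C (chr1:44739818-44767767), which depolymerises microtubules, had 2191, 1911, 2082, 898 and 464, 4.72-fold lower with FSK (4.26 to 5.23). KIF20A (chr5:138178719-138187715), which carries the passenger complex to the midzone, had 4097, 3280.5, 3616, 932 and 793. It was the only one of the 41 that was at least 4-fold lower with PMA, at 4.39-fold (4.09 to 4.72), against 0.419% of all genes, and FSK was 5.17-fold lower (4.78 to 5.59). KIF11, the motor that separates the poles, and KIF23, a motor of the midzone, were 4.74- and 4.93-fold lower with FSK, and 2.36- and 2.01-fold with PMA.

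Among proteins that bind spindle microtubules, NUSAP1 (chr15:41332694-41381050) had 4153 scaled counts in control, 3528 with FSH, 3666 with SC79, 1669.7 with PMA and 713 with FSK. It was 5.82-fold lower with FSK (5.37 to 6.32) and 2.49-fold with PMA (2.35 to 2.63). PRC1 (chr15:90966038-90995629), which bundles the microtubules of the midzone, had 5982, 5083, 4931, 2655 and 1595, 3.75-fold lower with FSK (3.55 to 3.97). TPX2, an activator of AURKA, SPAG5 and HMMR were 3.84- to 5.65-fold lower with FSK and 1.97- to 2.33-fold with PMA.

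Chromosome structure is the role of the next 4 genes. MKI67 (Ki-67; chr10:128096659-128126385), which coats mitotic chromosomes and is widely used as a marker of proliferation, had 14758 scaled counts in control, 12550.1 with FSH, 13032 with SC79, 6251 with PMA and 1654 with FSK. FSK was 8.92-fold below control (8.47 to 9.4) and PMA 2.36-fold (2.29 to 2.43). TOP2A (chr17:40388516-40417950), the topoisomerase that untangles sister DNA, had 15906, 12532, 14327, 5568 and 2508, and PMA was 2.86-fold below control (2.77 to 2.94). NCAPG (chr4:17810902-17844862), a condensin subunit, had 3819.6, 3243, 3159, 1874 and 673, 5.67-fold lower with FSK (5.22 to 6.17). Its RNA has the fewest words of its own, 63.2%, LCORL sharing more of the rest than any other gene, and NCAPH, its partner subunit, was 6.73-fold lower with FSK.

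ANLN and ECT2 build the cleavage furrow, ECT2 as the activator of RHOA and ANLN as a scaffold for the contractile ring. ANLN (chr7:36389806-36453791) had 11331 scaled counts in control, 9067 with FSH, 8802 with SC79, 7229 with PMA and 1633 with FSK. FSK was 6.94-fold lower (6.58 to 7.32) and PMA only 1.57-fold (1.52 to 1.61). ECT2 (chr3:172750682-172821474) had 4922, 4109, 4162, 3227 and 2229, 2.21-fold lower with FSK (2.1 to 2.32) and 1.53-fold with PMA (1.46 to 1.59). These were the only role group with no member 2-fold lower with PMA.

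FSK and PMA, the 2 treatments with the lowest levels, were compared directly, without the control. FSK was at least 2-fold below PMA for 21 of the 41 genes, against 5.8% of all genes, with a median log2 ratio of -1.01 beside 0.00. The interval lay below equality for 38 genes, against 36.4% of all genes, above it for CDC25B and BUB1, and included it for PTTG1. PKMYT1 was 9.22-fold higher with PMA than with FSK (7.46 to 11.5), followed by ANLN at 4.43-fold (4.19 to 4.68), AURKB at 4.4-fold (3.62 to 5.39) and MKI67 at 3.78-fold (3.58 to 4.0). At the other end lay KIF20A at 1.18-fold (1.07 to 1.3), AURKA at 1.34-fold (1.2 to 1.49), CCNB2 at 1.34-fold (1.18 to 1.52) and CCNB1 at 1.35-fold (1.25 to 1.46).

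**Figure D3:**
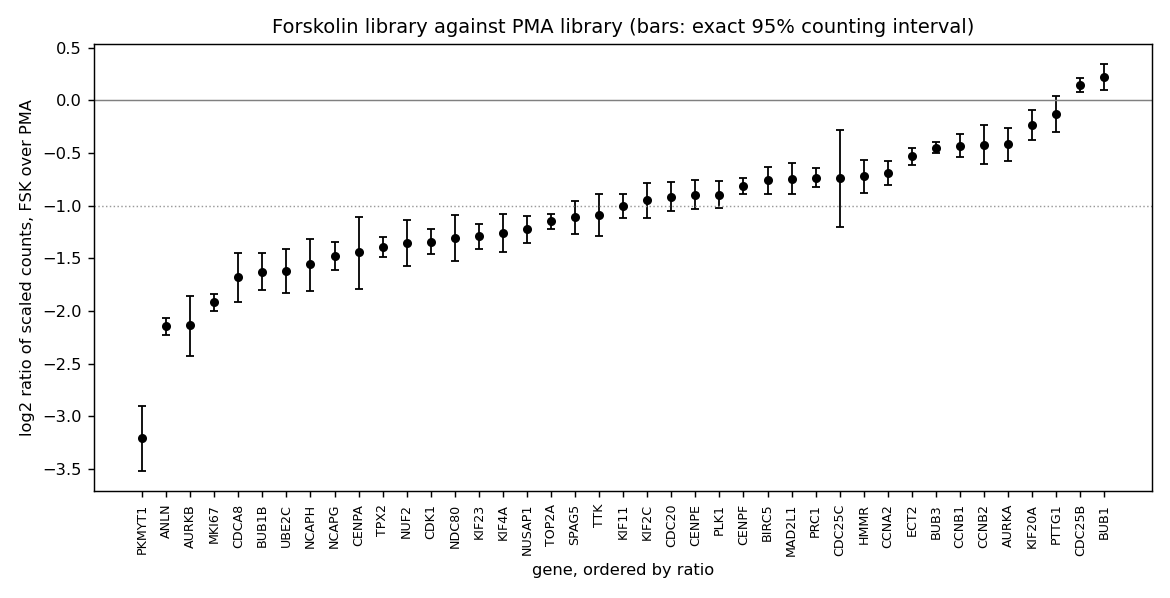
Log2 ratio of scaled counts in the FSK library over the PMA library (y axis) for each of the 41 genes, ordered from lowest to highest; bars are exact 95% intervals of counting error and the dotted line marks 2-fold lower. PKMYT1 lies alone at -3.19 on this log2 axis, and BUB1 and CDC25B lie above 0.

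The remaining direct comparisons gave 38 genes at least 2-fold lower with FSK than with FSH, against 4.52% of all genes. The median log2 ratio was -2.05. PMA was at least 2-fold below SC79 for 23 genes, against 3.24% of all genes, with a median of -1.09. PKMYT1 was the exception, higher with PMA than with SC79, and for BUB3 the interval included equality. SC79 and FSH lay close to each other, with a median of 0.09 and no gene 2-fold lower, against 0.328% of all genes. The interval lay above equality for SC79 in 22 genes, against 17.7% of all genes, and included it in 17, and PKMYT1 and PTTG1 were higher with FSH. PKMYT1 and PTTG1 were also the genes nearest to control with FSH, at 94.8% (87.2% to 103%) and 95.5% (88.5% to 103%), whereas the intervals of the other 39 lay below 100%, against 18.8% of all genes. With SC79 the interval lay below 100% for 34 genes, against 24.4% of all genes, and included it for AURKB, CDCA8, BUB1, UBE2C, CENPA, KIF2C and HMMR.

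Compared per kilobase of transcript, BUB3 had the highest level of the 41 in control, at 3504 scaled counts per kilobase. TOP2A at 2859 and CCNB1 at 2854 followed, and CDC25C was lowest at 224. With FSK the order at the top was BUB3 at 2343, CDC25B at 1510.2 and CCNB1 at 711 scaled counts per kilobase. CDC25B stood at 2083 scaled counts per kilobase in control, below TOP2A, CCNB1 and 5 others besides BUB3.

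Lists of other genes of the cell cycle were read the same way. Of all genes tested, 5.43% were at least 2-fold lower than control with FSK and 3.62% with PMA. At these shares a count of none in a list of 15 genes or fewer is no result. Of 66 other mitosis genes tested, 57 were at least 2-fold lower with FSK and 26 with PMA. The medians of the 67 kept were -1.99 and -0.91. KIF15, a spindle kinesin, had 1309 scaled counts in control, 1058 with FSH, 1148 with SC79, 527 with PMA and 149.6 with FSK, a log2 ratio of -3.12 with FSK. CENPM had 340.0 in control and 44.3 with FSK (-2.91). The highest value of the 67 was 1.14 for CCNB3, a cyclin with 17.4 scaled counts in control and 39.7 with FSK, too few to be among the 66 tested and named after its value was seen. Among those tested the highest were the kinetochore genes MIS12, at 0.10, and CENPC, at -0.14. The genes of the anaphase-promoting complex, its core subunits with the coactivator FZR1, had ratios near 1, with medians of -0.16 with FSK and -0.12 with PMA. None of the 15 was 2-fold lower with either treatment. With FSK CDC23 was at -0.38, ANAPC1 and FZR1 at -0.33, ANAPC16 at 0.38 and ANAPC2 at 0.31. Of 11 cohesin genes, which hold sister chromatids together, only CDCA5 (sororin) was 2-fold lower with FSK, from 1954 scaled counts to 348 (-2.48), and none with PMA. The next lowest, SMC3, was at -0.82, and MAU2 and STAG2 were at 0.35 and 0.05. The cohesin medians were -0.15 with FSK and -0.02 with PMA.

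S phase genes, which copy the DNA, differed between the 2 treatments, with a median log2 ratio of FSK to PMA of -1.37. Against control, with FSK 27 of 30 were at least 2-fold lower, beside 5.43% of all genes. With PMA only TYMS and TK1 were, beside 3.62% of all genes. Their medians were -1.66 and -0.46. MCM10, a replication factor, had 1106 scaled counts in control, 1009 with FSH, 772 with SC79, 802 with PMA and 104 with FSK, and UHRF1, which maintains DNA methylation, had 4603, 4075, 3479, 3538 and 503. The log2 ratios with FSK were -3.40 for MCM10 and -3.19 for UHRF1, and at the top of the list SLBP was at -0.67 and RFC2 at -0.92. MCM5, MCM7 and RFC2 lay above control with PMA, at 0.31, 0.21 and 0.44, while with FSK they were at -1.79, -1.18 and -0.92 (MCM5 and MCM7 were singled out after their values were seen). The summed counts of the 41 mitosis genes were 1.89 times those of the S phase genes in control, 1.68 with FSH, 1.99 with SC79, 1.42 with FSK and 1.15 with PMA. That ratio was lowest with PMA, although the mitosis genes themselves were lowest with FSK.

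The regulators of these promoters were not alike. FOXM1, a transcription factor of G2 and M phase genes, had 4305 scaled counts in control, 3727 with FSH, 3886 with SC79, 1737 with PMA and 1018 with FSK, 4.23-fold below control with FSK (3.94 to 4.53) and 2.48-fold with PMA (2.35 to 2.62). MYBL2, which activates them with the LIN proteins, had 3944, 3383, 2944, 1700.4 and 277. With FSK it was 14.2-fold lower (12.6 to 16.2), a lower ratio than that of any of the 41 genes, and with PMA 2.32-fold (2.19 to 2.45). Of the shared LIN core, LIN9 was at a log2 ratio of -0.87 with FSK and -0.33 with PMA, and LIN54 at -0.37 and -0.11. RBL2 (p130), the pocket protein of the repressor form, was at 0.23 with FSK and 0.13 with PMA. E2F8, an E2F repressor, went from 332 scaled counts in control to 39.7 with FSK (-3.03) and was at 324 with PMA. The 2 highest tested genes of the list with FSK were CDK inhibitors, CDKN1A (p21) at 0.33 and CDKN1B (p27) at 0.24. CDKN1C, another CDK inhibitor, had the highest SC79 ratio of the 30 regulators kept, at 0.44. CDKN1A had 25511 scaled counts in control and 31843 with SC79, 32184 with PMA and 32151 with FSK. Of all genes tested, 4.4% were at least 1.2-fold higher than control with SC79, 21.5% with PMA and 23.8% with FSK. Of 29 regulators tested 10 were 2-fold lower with FSK, against 5.43% of all genes. Over the 30 kept the median was -0.36. FOXM1 and MYBL2 were among the regulators 2-fold lower with PMA, where the median was -0.22. Of 15 reference genes none was 2-fold lower with either, which in so short a list is near the shares of all genes. Their medians were 0.01 with FSK and -0.06 with PMA. The FSK values of these genes ran from -0.62 for HPRT1 and -0.59 for ACTB to 0.36 for B2M and 0.46 for PGK1.

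With FSH the medians were -0.21 for other mitosis genes, -0.12 for S phase genes, -0.05 for regulators, -0.04 for the anaphase-promoting complex, -0.09 for cohesin and 0.00 for reference genes. With SC79 they were -0.18, -0.25, -0.12, 0.01, -0.12 and -0.03 in that order. The S phase median was thus further from 0 than that of the 41 genes (-0.18) with SC79, and nearer to 0 than theirs (-0.29) with FSH.

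**Figure D4:**
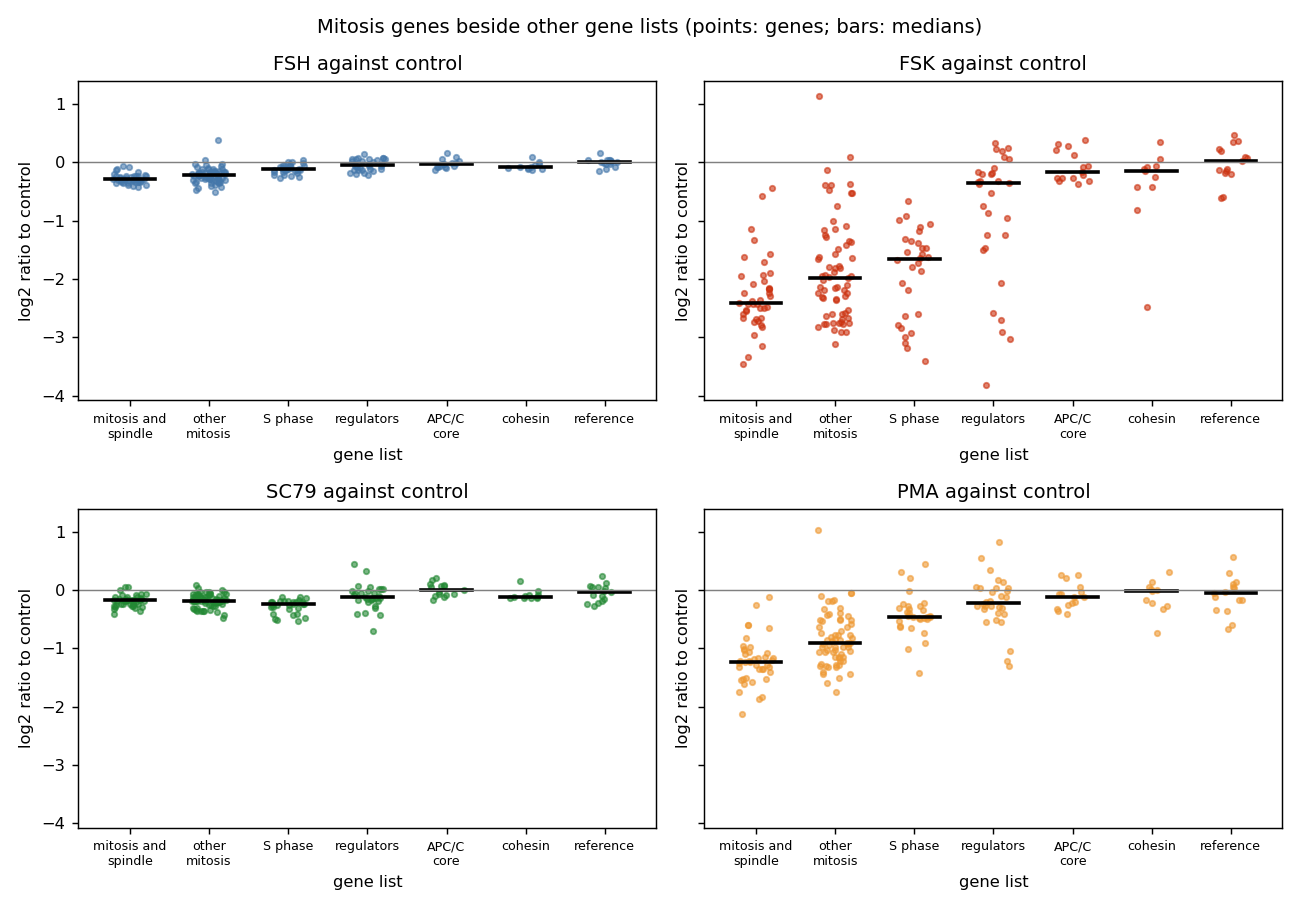
Log2 ratio to control (y axis) of each kept gene in 7 lists (x axis), with 1 panel per treatment; points are genes and black bars are medians. In the FSK panel the mitosis and S phase medians are -2.41 and -1.66, and in the PMA panel they are -1.24 and -0.46.

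The gene sums hold several transcripts. In 8 genes the share assigned to 1 transcript differed by more than 20 percentage points between libraries: CCNA2, KIF23, AURKA, CENPA, CDC25C, NCAPG, HMMR and CDC25B. The 4 described first were chosen after their values were seen. In NCAPG the transcript ENST00000514176, annotated as a target of nonsense-mediated decay, held 31.4% of the gene's counts in control (30.0% to 32.8%), 28.4% with PMA and 11.2% with FSK (9.02% to 13.9%). In KIF23 the transcript ENST00000260363 held 37.4% in control, 32.9% with FSH, 30.2% with SC79, 22.7% with PMA and 11.2% with FSK. Its ENST00000559279 went from 0.0504% in control to 16.2% with FSK and 16.8% with SC79. In CDC25B the share of ENST00000439880 was 32.5% in control, 24.9% with FSK and 14.3% with PMA (13.2% to 15.4%), and that of ENST00000245960 was 45.0%, 51.6% and 65.5%. In scaled counts ENST00000245960 stood at 2512 with PMA against 2603 in control, while ENST00000439880 went from 1883 to 547. In CENPA the processed transcript ENST00000460030 held 7.38% in control and 27.1% with FSK (19.3% to 36.5%), on 28.1 scaled counts there. Intervals of shares are Wilson 95% intervals of counting error and leave out the error of assigning reads: ENST00000559279 has only 29 of its 31-base words to itself within KIF23, and ENST00000439880 25 within CDC25B. For CCNA2 the split cannot be read at all, since its 2 transcripts have 1 word each of their own. They stood at 80.6% and 19.4% in control and at 1793 scaled counts each with SC79. In AURKA the transcript ENST00000312783 held 19.2% in control, 25.2% with SC79 and 0% with FSK, and in CDC25C ENST00000323760 held 76.7% in control and 53.7% with FSK, but neither has a 31-base word of its own. In HMMR ENST00000358715 held 26.2% in control, 33.0% with FSK and 12.5% with SC79, with 26 words of its own. The gene sums used above do not depend on these splits.

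**Figure D5:**
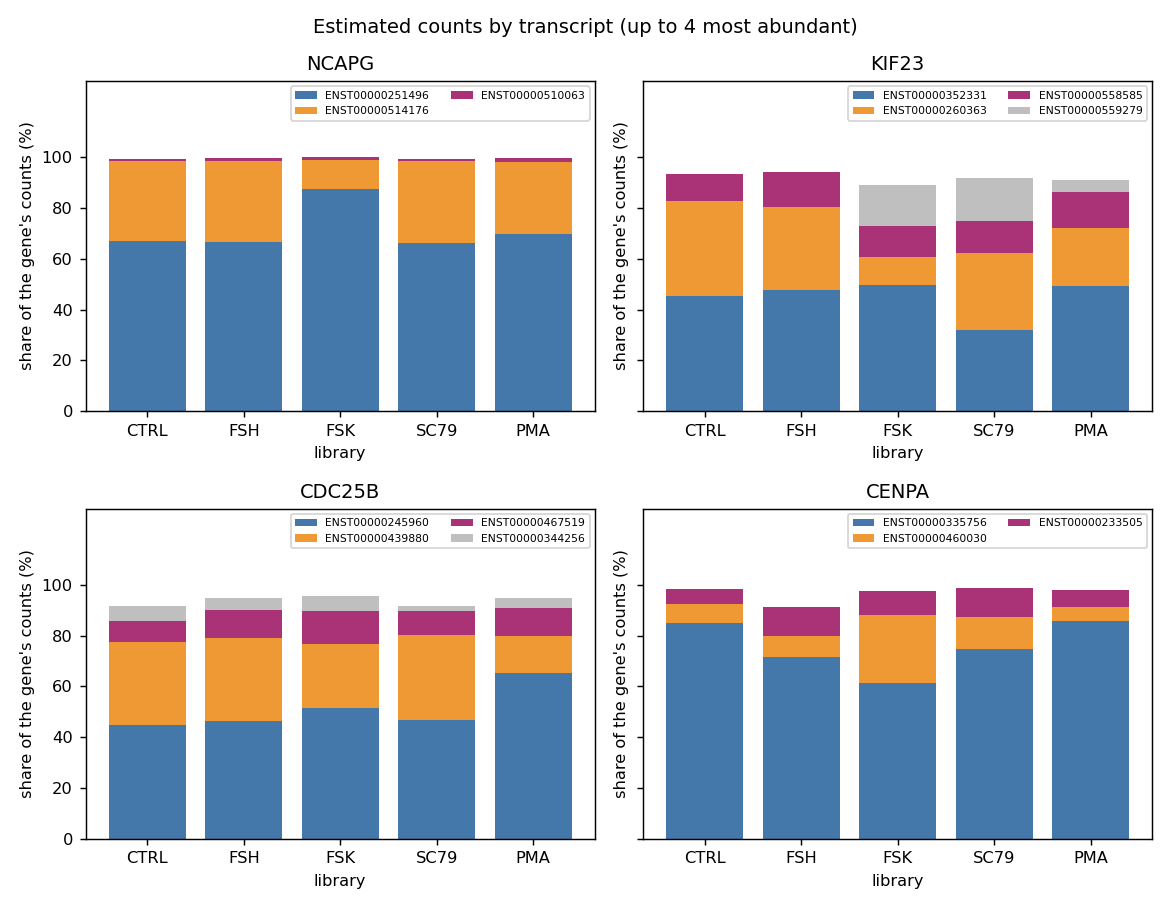
Share of each gene's estimated counts (y axis, %) assigned to its up to 4 most abundant transcripts in the 5 libraries (x axis), for NCAPG, KIF23, CDC25B and CENPA. The orange part of the NCAPG bar is 31.4% in control and 11.2% with FSK, and the orange part of the CDC25B bar is 32.5% in control and 14.3% with PMA.

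By annotated class, processed transcripts without a coding frame took 0.912% of the counts of the 41 genes in control and 2.32% with FSK, against 1.57% and 1.59% over all genes. The CDC25B transcript ENST00000467519 held most of them with FSK, at 557 scaled counts against 470.2 in control.

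The authors' deposited table gives their own log2 fold change per transcript, including a comparison with LH whose library is not analysed here. For the most abundant transcript of each of the 41 genes, the median log2 fold change in the authors' deposited table was -2.30 for FSK, -1.34 for PMA, -0.31 for FSH, -0.29 for SC79 and -0.66 for LH. In the authors' deposited table all 41 lay below 0 with FSK, PMA and FSH, and 40 with SC79 and with LH. For LH the values in the authors' deposited table ran from -2.05 for KIF20A to 0.36 for PKMYT1. None of these transcripts had an adjusted p-value under 0.05 in the authors' deposited table, where the share of all transcripts that were lower at that threshold was 1.11% for FSK, 1.06% for PMA, 1.13% for LH, 0.851% for FSH and 0.845% for SC79. At an unadjusted p-value under 0.05 in the authors' deposited table there were 28 of the 41 with FSK, 3 with PMA and none with FSH, SC79 or LH, all of them lower. The share of all transcripts that were lower at that threshold in the authors' deposited table was 4.6% for FSK, 4.22% for PMA, 3.87% for FSH, 3.91% for SC79 and 4.13% for LH. Among these 41 main transcripts the lowest adjusted p-value in the authors' deposited table was 0.0606, for AURKB with FSK. Some less abundant transcripts of these genes were under 0.05 there, in both directions. Examples are AURKA ENST00000312783 with FSK, at a log2 fold change of -11.4, and KIF23 ENST00000559279 with SC79, at 8.06. Such values depend on how reads were assigned to the transcripts of a gene. With 1 library per group those p-values rest on a dispersion that is not given in the sources used here. The shares over all transcripts include the less abundant ones of every gene, while the 41 are main transcripts, so the sets are unlike.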

How the data were processed

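The authors deposited estimated counts per transcript, a normalized signal equal to these counts times 1 constant per library (0.934 to 1.03), and a comparison table with a log2 fold change and a p-value per transcript. Trimmomatic, kallisto and edgeR were used per the submitters' processing notes. Not given in the sources used here are their versions, the genome build, the transcript index and the strand. Of 179973 transcripts, 90.9% had their identifier in GENCODE 29, which gave coordinates (GRCh38) and 31-base words.

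Deposited estimated counts were summed over 35453 gene names (303 unnamed transcripts left out), rounded, and scaled with edgeR 4.0.16 (TMM, factors 0.976 to 1.03) in R 4.3.3; DESeq2 1.42.0 size factors were an alternative. Ratios were log2 of scaled counts plus 1. A gene was called at 2-fold or more where the higher of both libraries had 100 scaled counts or more. With 1 library per group no test was run; ratio intervals are exact conditional binomial (Clopper-Pearson). The calculation was tested on simulated Poisson counts with planted changes, which hold no spread between cultures and no error of assigning reads. Python 3.11.15, numpy 2.4.6, pandas 2.3.3, scipy 1.17.1 and matplotlib 3.10.9 were used.

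The genes, lists and rules were chosen with earlier results of these data known. Named in full were, per role, the genes lowest and highest with FSK and furthest from control with PMA. Per related list, the 2 lowest and 2 highest with FSK were named, and always FOXM1, MYBL2, LIN9, LIN54, RBL2, CDKN1A and CDKN1B. One regulator is not reported here.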

Additional observations from a re-analysis of the deposited data

How the results depend on the processing

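Medians and counts were recomputed with DESeq2 size factors, library totals, no filter or a mean of at least 200 scaled counts, a pseudocount of 10, the most abundant transcript only, the 37 genes with at least 80% own words, other fold limits and the authors' deposited log2 fold changes. All 41 genes pass both filters, so 26 of the 96 values, from the filters and from counts of 0 at a stricter fold, could not differ. A median was taken as kept where it lay between the medians of the lower and upper counting limits of the genes. A count was taken as kept where it was within 1.5-fold of the main count. By these rules 68 of the other 70 were kept and 2 moved. Kept counts include 39 genes in place of 33 with PMA at 1.5-fold, and 31 in place of 39 with FSK at 4-fold. At 4-fold, 1 gene was lower with PMA in place of 33, which moved by the stricter limit itself. With the authors' deposited log2 fold changes the SC79 median was -0.29 in place of -0.18, and there CCNA2 had the lowest value, -0.94, from 1 of its 2 near-identical transcripts. Over the 20 least abundant genes, an alternative chosen after seeing the data, the medians were -2.50 with FSK and -1.22 with PMA. No paired analysis was possible because each group has 1 library, and no library could be left out of a group. Depth limits CDC25C, PKMYT1 and CENPA most, with 67, 101 and 104 scaled counts in the FSK library. No replicate error exists to set the differences of FSH and SC79 against.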
